A study of Apis cerana with 9 samples.

Results

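The lysosome genes of the eastern honey bee, *Apis cerana*, were taken as the genes whose annotation in the deposited table names the Lysosome pathway of KEGG, a catalogue that assigns genes to pathways. Of the 12757 genes in the table, 101 carried the term. From these, 7 that also carry the term Oxidative phosphorylation were set aside, 6 of them described as subunits of the vacuolar proton pump and 1 uncharacterised. Scavenger receptors and 2 single genes were to be set aside as well, and none of them carried the term, so 94 lysosome genes remained. By their descriptions alone, 39 were hydrolases, 23 membrane proteins, 16 sorting proteins that carry newly made enzymes to the lysosome, and 16 other members, among them saposin and NPC2 proteins. The term also covers some genes whose descriptions name nothing lysosomal, such as a homeobox protein, a GATA zinc finger protein and a general odorant-binding protein, and these were kept among the other members.

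Lysosomes are acidic, membrane-bound compartments in which hydrolases break down proteins, glycans, lipids and nucleic acids delivered by endocytosis and autophagy. A proton pump keeps the lumen acidic, membrane proteins export the products, and coat and adaptor proteins move enzymes and membrane proteins to the compartment from the Golgi. Several of the enzyme families also have secreted members in insects, which act in the gut or in glands.

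RNA with poly(A) tails from the proboscis, the sucking mouthpart, was sequenced. The bees were of 3 groups: bees carrying rapeseed pollen (rapeseed), bees carrying pear pollen (pear) and bees without pollen (non-pollen), with 3 libraries in each group. The labels give no age, strain, treatment, colony or collection day, nor whether a library is 1 bee or a pool, so the spread that p-values are based on is that between these libraries and could be technical. The comparisons ask whether the genes differ between bees with and without a pollen load, and between pollen sources.

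The total count per library was 53518340, 49085060 and 51153746 in rapeseed libraries, 45447582, 45949108 and 46167296 in pear libraries, and 43034759, 64306245 and 61728268 in non-pollen libraries. The 13 major royal jelly protein genes, products of a head gland of bees, took 0.264 to 0.301% of counts in rapeseed, 0.484 to 0.74% in pear and 32.1 to 32.4% in non-pollen libraries. The 28 gland sugar enzyme genes took 0.559 to 0.571% of counts in rapeseed, 0.447 to 0.497% in pear and 4.93 to 5.21% in non-pollen libraries, and 24 muscle genes took 7.67 to 7.70% of counts in rapeseed, 7.91 to 8.15% in pear and 3.72 to 3.79% in non-pollen libraries. The 10 photoreceptor genes took 0.00352 to 0.00373% of counts in rapeseed, 0.00312 to 0.00414% in pear and 0.0765 to 0.0827% in non-pollen libraries, 15 neuron genes 0.074 to 0.0753% of counts in rapeseed, 0.0746 to 0.0757% in pear and 0.0608 to 0.0618% in non-pollen libraries, 6 fat body genes 0.114 to 0.116% of counts in rapeseed, 0.118 to 0.122% in pear and 0.104 to 0.111% in non-pollen libraries and 2 hemocyte genes 0.00615 to 0.0076% of counts in rapeseed, 0.0075 to 0.00756% in pear and 0.00676 to 0.00711% in non-pollen libraries. No marker of these lists was at 0 in all libraries, and of the homeotic genes that specify mouthparts, Scr, pb and Dfd were all detected, together at 0.0331 to 0.0342% of counts in rapeseed, 0.0297 to 0.0327% in pear and 0.0217 to 0.0222% in non-pollen libraries. Royal jelly, gland enzyme and photoreceptor genes thus took a larger share, and muscle genes a smaller share, in non-pollen than in pollen libraries, on this scale and after the TMM scaling described next. After that scaling, neuron genes summed to 675 counts per 1000000 in rapeseed, 658 in pear and 779 in non-pollen libraries, fat body genes to 1041, 1053 and 1356 and hemocyte genes to 61.3, 66.0 and 87.8 in rapeseed, pear and non-pollen libraries, and mouthpart genes to 304, 271 and 278. Of the 15 neuron genes 2 were called higher and 12 lower in rapeseed, and 2 higher and 13 lower in pear against non-pollen libraries. Both hemocyte genes were lower in each. These and the following counts stand beside 29.3% higher and 30.0% lower of all tested genes in rapeseed libraries. In pear libraries these shares were 28.5% and 27.2%. The part of these lists in the results was not tested. Of 9 tested royal jelly genes 7 were lower and 2 higher in each pollen group against non-pollen libraries, and all 7 tested photoreceptor genes were lower. Of 17 tested gland enzyme genes 9 were higher and 4 lower in rapeseed, and 8 higher and 6 lower in pear libraries. The larger gland enzyme sum in non-pollen libraries thus came from a minority of its genes. Of 23 tested muscle genes 17 were higher in each pollen group, with 5 lower in rapeseed and 4 in pear libraries. Of 4 tested fat body genes 2 were higher and 2 lower in rapeseed, and 1 higher and 2 lower in pear libraries. In bulk RNA, fewer cells of a type and less RNA per cell cannot be told apart.

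Levels are given as CPM, the counts of a gene per 1000000 counts of its library after TMM scaling, which sets the libraries on one scale by a trimmed mean of their log ratios. Differences, also where a gene is said to be higher or lower by a value, are log2 fold changes with their standard error (SE), and a gene was called where the adjusted p of edgeR's quasi-likelihood test was under 0.05. Of the 94 lysosome genes, 84 reached an FPKM (a count divided by gene length and by depth) of 1 in 3 or more of the 9 libraries and were tested among 9259 genes. The other 10 were 3 hydrolases, 2 membrane proteins and 5 other members, with at most 112 counts in any library. Every sorting protein was tested.

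Per length, the most abundant member was prosaposin, the precursor of small proteins that help enzymes reach sphingolipids, with a mean FPKM of 339.5 over the 9 libraries. It was followed by a glucosylceramidase-like gene at a mean FPKM of 288, cathepsin L1 at 271, an NPC2 homolog at 266 and a CD63 antigen-like gene at 263. The place of the glucosylceramidase-like gene came from non-pollen libraries, with a mean FPKM of 137 in rapeseed, 189.8 in pear and 538 in non-pollen libraries. The median mean FPKM was 23.3 among 36 tested hydrolases, 21.9 among 21 membrane proteins, 20.5 among 16 sorting proteins and 21.8 among 11 other members. These classes thus had similar middle levels, while single members spanned 1.19 to 340 FPKM.

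As a whole, the lysosome genes did not move one way. In rapeseed against non-pollen libraries 29 of the 84 were called higher and 30 lower, where 29.3% and 30.0% of all 9259 tested genes were called higher and lower. In pear against non-pollen libraries 23 were called higher and 32 lower, beside 28.5% and 27.2% of all tested genes. In either direction, 59 members (70.2%) were called in rapeseed and 55 (65.5%) in pear libraries, beside 59.3% and 55.7% of all tested genes. The libraries of the groups did not overlap for 58 members (69.0%) in rapeseed and 57 (67.9%) in pear against non-pollen libraries, beside 63.3% and 59.4% of all tested genes. Whether these shares differ from those of other genes was not tested. The median log2 fold change of the 84 was -0.02 and -0.07 in these contrasts, beside -0.02 and -0.01 over all tested genes. Between rapeseed and pear libraries 13 (15.5%) were higher and 7 (8.33%) lower, beside 7.94% and 4.96% of all tested genes. In either direction 23.8% of the members were called, beside 12.9% of all tested genes. The median was 0.03 for the lysosome genes and -0.01 for all genes. The contrasts against non-pollen libraries share those libraries: 20 members were higher in both pollen groups, 26 lower in both, 2 opposite, and 15 were called in none of the 3 comparisons.

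Directions against non-pollen libraries depended on the scaling. With library totals in place of TMM, all tested genes had a median of 0.47 in rapeseed and 0.53 in pear libraries, and lysosome calls were 59 higher and 9 lower in rapeseed libraries and 65 higher and 7 lower in pear libraries. Of the 6 scalings tried, some also change the test. Under all 6, 29 of the 29 higher and 9 of the 30 lower calls were kept in rapeseed against non-pollen libraries. In pear against non-pollen libraries 20 of the 23 higher and 6 of the 32 lower calls were kept. Lower calls outside those 9 and 6 were lower relative to most genes, and lost the call or changed sign under some of the 6 scalings. With library totals some stayed negative without a call. An example is the cation-independent mannose-6-phosphate receptor, at -0.2 in rapeseed and -0.215 in pear libraries. Others turned positive. Library totals and both FPKM scales move most genes up against non-pollen libraries. That higher calls were kept is therefore no test of them.

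Among the hydrolases, 3 genes were far higher in non-pollen libraries under all 6 scalings, while the sum of the other 36 depended on the scaling. Summed over the 39 hydrolases, CPM was 3612 ± 4.85 in rapeseed, 3520 ± 57.1 in pear and 6861 ± 169 in non-pollen libraries (SD, n = 3 each). A pair of glucosylceramidase genes and 1 lysosomal alpha-mannosidase gene accounted for 12.0% of this sum in rapeseed, 14.6% in pear and 51.8% in non-pollen libraries. Without these 3, chosen after their values were seen, the sums were 3177 ± 12.5 in rapeseed, 3005 ± 22.8 in pear and 3308 ± 48.6 CPM in non-pollen libraries. The sum over all 94 lysosome genes was 8407 ± 20.2, 8146 ± 52.8 and 11449 ± 256 CPM in rapeseed, pear and non-pollen libraries, and over the other 91 it was 7972 ± 26.5, 7631 ± 24.4 and 7896 ± 135 CPM. As a share of all counts, without TMM, the 3 genes took 0.0482% in rapeseed, 0.0587% in pear and 0.28% in non-pollen libraries, and the other 36 hydrolases 0.352%, 0.343% and 0.26%. All 94 genes took 0.931%, 0.929% and 0.901% of counts in rapeseed, pear and non-pollen libraries, and the other 91 took 0.882%, 0.87% and 0.621%, so without TMM non-pollen libraries were lowest in these sums.

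**Figure D1:**
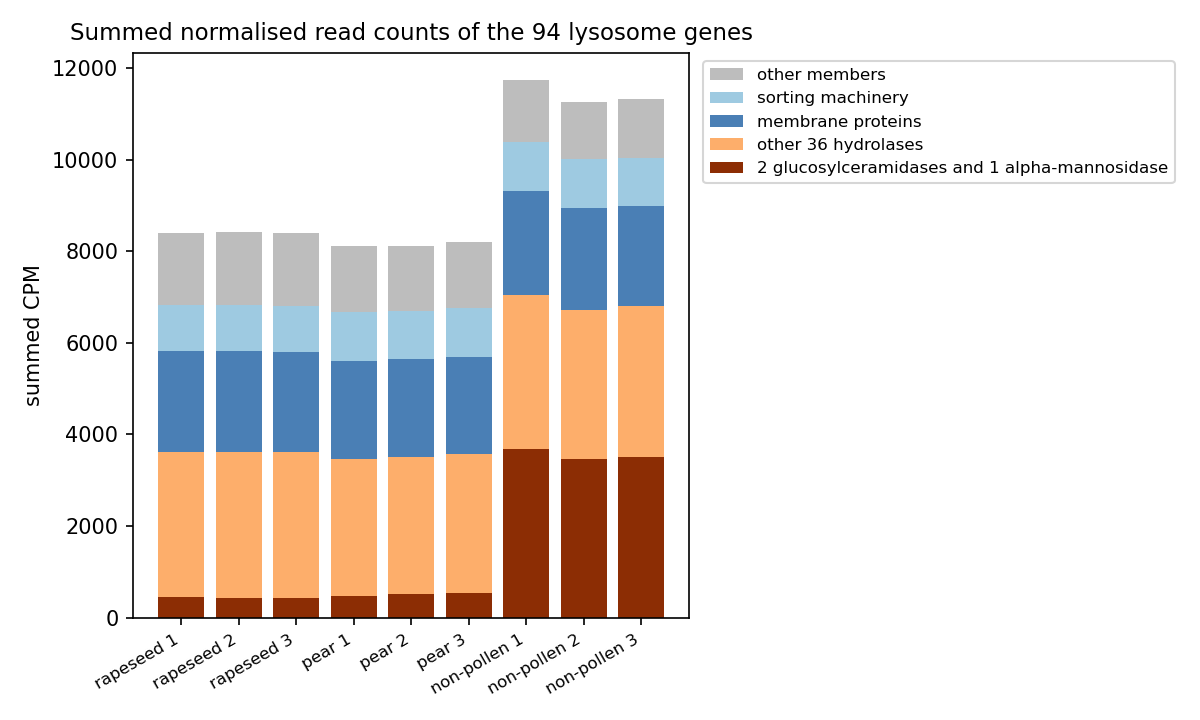
Stacked bars of summed CPM (vertical axis) in each of the 9 libraries, for the 3 glycosidase genes, the other 36 hydrolases, membrane proteins, sorting proteins and other members. The bars of the 3 genes stand at 427 to 442 CPM in rapeseed, 480 to 549 in pear and 3462 to 3691 in non-pollen libraries, and the other members stand at 1569 to 1594 CPM in rapeseed, 1430 to 1454 in pear and 1258 to 1353 in non-pollen libraries.

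Putative glucosylceramidase 4 (LOC108003239) is on the minus strand of scaffold NW_016019852.1 from 171905 to 174568, and glucosylceramidase-like (LOC108003248) on the same strand from 175900 to 205193, 1332 bases apart. The labels name no genome build, and the table lists no exons. Glucosylceramidases split glucosylceramide, a membrane lipid, into glucose and ceramide. Glucosylceramidase 4 had 68.8, 64.2 and 67.5 CPM in rapeseed libraries, 19.8, 27.4 and 31.2 CPM in pear libraries and 1376, 1299.9 and 1290.0 CPM in non-pollen libraries. Its log2 fold change was -4.31 (SE 0.0882, adjusted p = 4.82e-20) in rapeseed and -5.66 (SE 0.0962, adjusted p = 1.91e-21) in pear against non-pollen libraries. Between the pollen groups it was higher in rapeseed than in pear libraries, by 1.36 (SE 0.0892, adjusted p = 3.51e-10). Glucosylceramidase-like had 352, 342 and 349 CPM in rapeseed libraries, 439.8, 467 and 495 CPM in pear libraries and 2001, 1874 and 1925 CPM in non-pollen libraries. It fell to a lesser extent, with -2.47 (SE 0.0405, adjusted p = 9.28e-22) in rapeseed and -2.05 (SE 0.0398, adjusted p = 2.09e-20) in pear against non-pollen libraries, and unlike its neighbour it was lower in rapeseed than in pear libraries, at -0.43 (SE 0.0387, adjusted p = 5.53e-08). The groups did not overlap for either gene in any comparison. A short uncharacterised gene on the same strand, LOC108003250, lies inside glucosylceramidase-like over 1175 bases. It had 277, 281 and 279 CPM in rapeseed libraries, 182, 235 and 262 CPM in pear libraries and 10684, 9881 and 9959 CPM in non-pollen libraries, so its counts moved the same way against non-pollen libraries. Between rapeseed and pear libraries it was higher by 0.30 (SE 0.0764, adjusted p = 0.0103), where glucosylceramidase-like was lower. Whether reads were shared between these genes was not tested.

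Lysosomal alpha-mannosidase (LOC107996108), which removes mannose from glycoproteins, also fell. It had 20.9, 20.2 and 20.6 CPM in rapeseed libraries, 20.1, 20.8 and 23.4 CPM in pear libraries and 313, 288 and 290.0 CPM in non-pollen libraries. The log2 fold change was -3.85 (SE 0.0555, adjusted p = 1.18e-22) in rapeseed and -3.79 (SE 0.0555, adjusted p = 1.49e-22) in pear against non-pollen libraries, and -0.06 (SE 0.0568, adjusted p = 0.588) between rapeseed and pear libraries. A further alpha-mannosidase gene (LOC107996126) lies 106 bases away and went the other way. It had 12.4, 9.84 and 10.5 CPM in rapeseed libraries, 6.86, 4.38 and 5.14 CPM in pear libraries and 4.94, 3.62 and 3.75 CPM in non-pollen libraries. In rapeseed libraries this copy rose by 1.42 (SE 0.177, adjusted p = 6.16e-07) against non-pollen libraries and by 1.0 (SE 0.172, adjusted p = 0.000303) against pear libraries, while pear and non-pollen libraries overlapped, at 0.42 (SE 0.18, adjusted p = 0.0511). The neighbours thus stood far apart in non-pollen libraries and nearer to each other in rapeseed libraries. Close copies can share reads, which the sources used here do not describe.

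Beta-galactosidase-like (LOC107999782), which removes galactose from glycans, had 69.6, 69.5 and 67.7 CPM in rapeseed libraries, 47.3, 48.9 and 51.3 CPM in pear libraries and 131, 126 and 133 CPM in non-pollen libraries. It was lower against non-pollen libraries in rapeseed, at -0.92 (SE 0.0444, adjusted p = 1.51e-13), and in pear, at -1.40 (SE 0.0453, adjusted p = 1.87e-16), and higher in rapeseed than in pear libraries, by 0.49 (SE 0.0452, adjusted p = 7.47e-08). The 3 groups were fully separate for this gene. Alpha-N-acetylgalactosaminidase-like (LOC107998803) was lower to the same extent in both pollen groups, at -0.65 each, although in pear libraries this call did not hold under every scaling. Beta-glucuronidase and a beta-mannosidase-like gene were also called lower in pear libraries, at -0.17 and -0.35. Lysosomal alpha-glucosidase (LOC108000607), the enzyme of glycogen breakdown in this compartment, was called in no comparison, with -0.04, -0.03 and -0.01.

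Some glycosidases rose with pollen. Alpha-N-acetylglucosaminidase (LOC107993657), an enzyme of heparan sulfate breakdown, had 7.55, 9.22 and 5.83 CPM in rapeseed libraries, 5.84, 4.99 and 4.99 CPM in pear libraries and 3.94, 4.11 and 3.68 CPM in non-pollen libraries. Rapeseed libraries were above non-pollen libraries by 0.94 (SE 0.177, adjusted p = 0.000108). The smaller rise in pear libraries, 0.43 (SE 0.178, adjusted p = 0.0461), was lost without any 1 of rapeseed replicate 1, pear replicates 1, 2 and 3 and non-pollen replicates 1, 2 and 3 (adjusted p from 0.0584 to 0.145). Beta-hexosaminidase subunit beta-like (LOC107992878), which removes terminal amino sugars, had 100.2, 97.6 and 101 CPM in rapeseed libraries, 85.9, 88.6 and 88.1 CPM in pear libraries and 74.5, 72.8 and 65.8 CPM in non-pollen libraries. It was higher than in non-pollen libraries by 0.49 (SE 0.0474, adjusted p = 1.44e-08) in rapeseed and 0.30 (SE 0.0476, adjusted p = 1.51e-05) in pear, and higher in rapeseed than in pear libraries by 0.18 (SE 0.0468, adjusted p = 0.0102), a call lost without rapeseed replicate 3 (adjusted p = 0.0502). Chitooligosaccharidolytic beta-N-acetylglucosaminidase (LOC107993788), which acts on chitin fragments in insects, had 45.1, 44.6 and 46.9 CPM in rapeseed libraries, 46.0, 45.9 and 48.1 CPM in pear libraries and 37.7, 36.2 and 39.5 CPM in non-pollen libraries. It rose by 0.27 in rapeseed and 0.30 in pear libraries. Of the 14 glycosidases tested, 4 were higher and 6 lower in rapeseed against non-pollen libraries (28.6% and 42.9%). Of all tested genes these were 29.3% and 30.0%. In pear against non-pollen libraries 3 were higher and 8 lower (21.4% and 57.1%), beside 28.5% and 27.2%. In rapeseed against pear libraries 4 were higher and 1 lower (28.6% and 7.14%), beside 7.94% and 4.96%. With library totals the balance against non-pollen libraries turned to 9 higher and 5 lower in each pollen group.

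**Figure D2:**
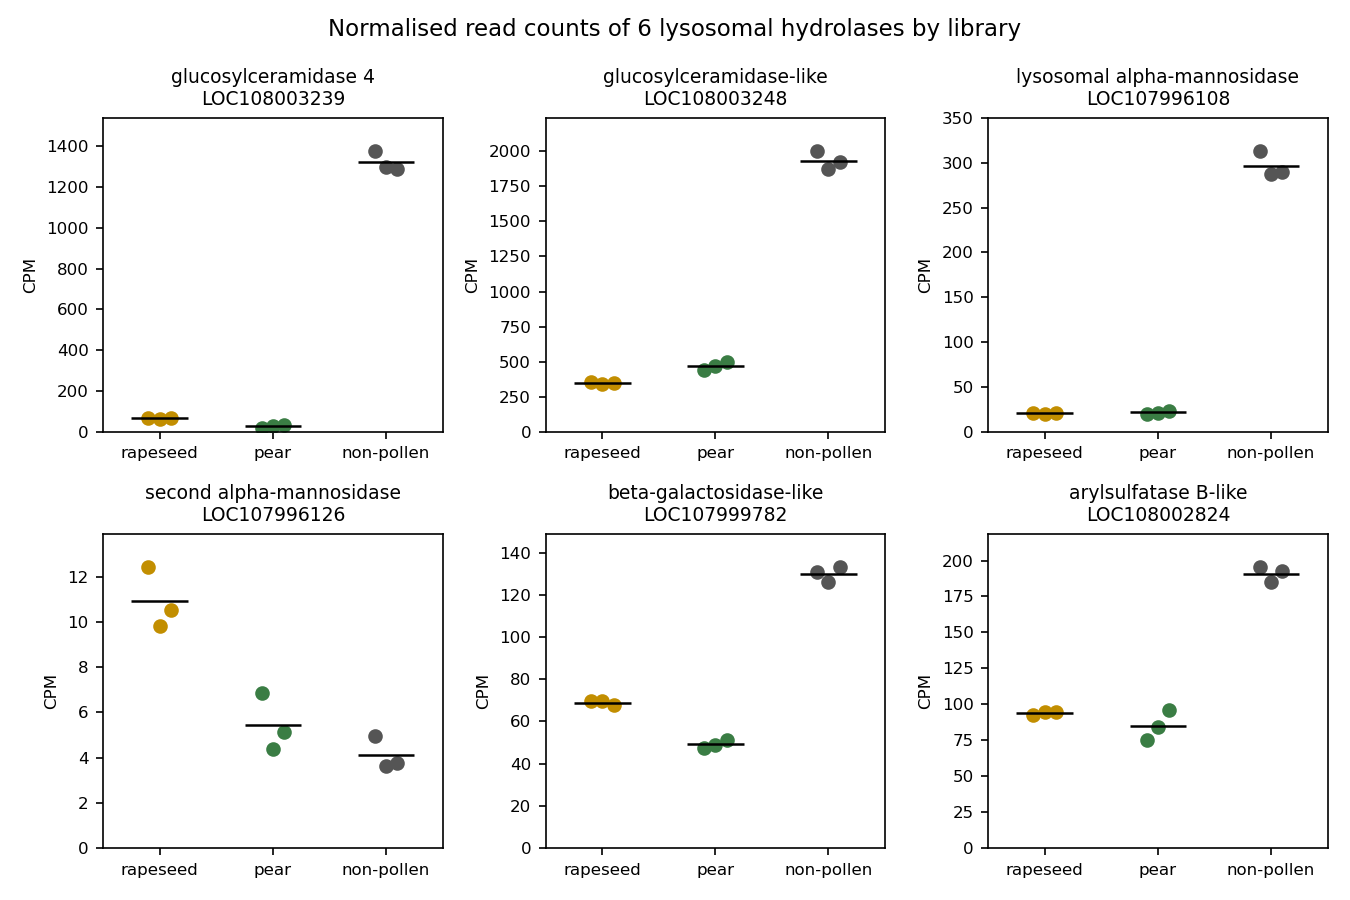
CPM (vertical axis, from 0) in each library for 6 hydrolases, with points for libraries and a line for the mean of each group of 3. In glucosylceramidase 4, glucosylceramidase-like, the alpha-mannosidase LOC107996108, beta-galactosidase-like and arylsulfatase B-like, all rapeseed and pear points lie below the non-pollen points, whereas in the alpha-mannosidase LOC107996126 the rapeseed points are highest.

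Sulfatases remove sulfate groups from glycosaminoglycans. Arylsulfatase B-like (LOC108002824) had 92.5, 94.6 and 94.7 CPM in rapeseed libraries, 75.3, 84.3 and 95.8 CPM in pear libraries and 195, 185 and 193 CPM in non-pollen libraries. It was lower at -1.02 (SE 0.0586, adjusted p = 2.65e-12) in rapeseed and -1.17 (SE 0.059, adjusted p = 3.99e-13) in pear against non-pollen libraries. A different arylsulfatase B-like gene (LOC107997858) had 208, 209.9 and 209.7 CPM in rapeseed libraries, 158, 152 and 162 CPM in pear libraries and 181, 181 and 178 CPM in non-pollen libraries, with 3 separate groups in which rapeseed was highest and pear lowest. It was higher than in non-pollen libraries in rapeseed, by 0.22 (SE 0.0352, adjusted p = 1.78e-05), and lower in pear, at -0.19 (SE 0.0354, adjusted p = 9.63e-05), a direction that turned to 0.34 with library totals. The difference between rapeseed and pear libraries was 0.41 (SE 0.0352, adjusted p = 2.2e-08). Its neighbour LOC107997901, also arylsulfatase B-like and 1212 bases away, had 104 ± 2.26 CPM in rapeseed, 101 ± 5.41 in pear and 94.5 ± 3.20 in non-pollen libraries (SD, n = 3 each). Iduronate 2-sulfatase (LOC108003103), an enzyme of heparan and dermatan sulfate breakdown, was called lower at -0.56 (SE 0.0821, adjusted p = 5e-06) in rapeseed and -0.38 (SE 0.0819, adjusted p = 0.00046) in pear libraries, calls not kept under every scaling. Of 6 sulfatases tested, 2 were higher and 2 lower in rapeseed, and in pear against non-pollen libraries 3 were lower and 3 were not called. Of all tested genes, 29.3% were higher and 30.0% lower in rapeseed, and 28.5% and 27.2% in pear libraries. With library totals the sulfatases counted 4 higher and 1 lower in rapeseed and 3 higher and 1 lower in pear libraries.

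Proteases changed little beside these genes. Lysosomal aspartic protease (LOC107992626), a cathepsin D type enzyme, was 344 ± 5.89 CPM in rapeseed, 311 ± 9.20 in pear and 287 ± 12.5 in non-pollen libraries (SD, n = 3 each), and rose by 0.26 (SE 0.0368, adjusted p = 3.73e-06) in rapeseed and 0.12 (SE 0.0368, adjusted p = 0.0111) in pear libraries. Cathepsin L1 (LOC108000406), a cysteine protease, had 342, 383 and 352 CPM in rapeseed libraries, 346, 364 and 367 CPM in pear libraries and 404, 408 and 395 CPM in non-pollen libraries. It was lower at -0.16 (SE 0.0393, adjusted p = 0.00124) in rapeseed and -0.16 (SE 0.0393, adjusted p = 0.0014) in pear against non-pollen libraries, and with library totals its direction turned to 0.33 and 0.37. The putative cysteine proteinase CG12163 (LOC107997817) was the protease with the most reads, with 701, 700.2 and 705 CPM in rapeseed libraries, 682, 663 and 612 CPM in pear libraries and 717, 699.9 and 723 CPM in non-pollen libraries. Its change was -0.02 (SE 0.036, adjusted p = 0.598) in rapeseed, where groups overlapped, and -0.13 (SE 0.036, adjusted p = 0.00455) in pear libraries, which turned to 0.41 with library totals. Of the 6 cathepsins and related cysteine proteases, 3 were higher and 1 lower in rapeseed, and 2 higher and 2 lower in pear against non-pollen libraries. Of all tested genes, 29.3% were higher and 30.0% lower in rapeseed, and 28.5% and 27.2% in pear libraries. With library totals and on both FPKM scales, all 6 of these proteases were called higher in both contrasts.

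Higher in both pollen groups were the peptidase C1-like gene LOC108002074 and cathepsin J-like (LOC107992484). LOC108002074 had 296 ± 6.75 CPM in rapeseed, 309 ± 17.7 in pear and 254 ± 11.5 in non-pollen libraries (SD, n = 3 each), with log2 fold changes of 0.23 in rapeseed and 0.29 in pear libraries. Cathepsin J-like had 17.6, 14.5 and 18.1 CPM in rapeseed libraries, 13.8, 15.9 and 17.4 CPM in pear libraries and 12.8, 13.1 and 10.9 CPM in non-pollen libraries. It rose by 0.44 (SE 0.114, adjusted p = 0.00222) in rapeseed and 0.35 (SE 0.115, adjusted p = 0.0126) in pear libraries, the pear call being lost without any 1 of pear replicate 3 and non-pollen replicate 3 (adjusted p from 0.0668 to 0.0787). Along 13627 bases it overlaps, on the opposite strand, the transcription factor EB gene (LOC107992460), which had 282, 286 and 283 CPM in rapeseed libraries, 274, 289 and 307 CPM in pear libraries and 209, 198 and 212 CPM in non-pollen libraries. In mammals this factor activates lysosomal genes. It is no member of the pathway list and was looked at because of this overlap. Whether counting used strand is not given in the sources used here, so reads from these genes may not be told apart where they overlap. Its log2 fold change was 0.46 (SE 0.0404, adjusted p = 2.77e-09) in rapeseed and 0.49 (SE 0.0404, adjusted p = 1.11e-09) in pear against non-pollen libraries, and -0.03 (SE 0.04, adjusted p = 0.694) between rapeseed and pear libraries. Cathepsin O-like (LOC108002918) rose by 0.29 (SE 0.0836, adjusted p = 0.00529) in rapeseed libraries and digestive cysteine proteinase 1 (LOC107994980) was called in no comparison.

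Lipid and phosphate ester hydrolases were called lower against non-pollen libraries more often than higher on the TMM scale, and none of these lower calls was kept under every scaling. The call that was kept went up: the lysosomal acid lipase-like gene LOC107992732, of the kind that splits cholesteryl esters, had 6.02, 4.15 and 4.05 CPM in rapeseed libraries, 4.03, 5.18 and 4.19 CPM in pear libraries and 4.09, 2.67 and 2.72 CPM in non-pollen libraries and was higher in rapeseed against non-pollen libraries by 0.60 (SE 0.218, adjusted p = 0.0236), although their libraries overlapped. It was named after its values were seen, and this call was lost without any 1 of rapeseed replicate 1 and non-pollen replicates 2 and 3 (adjusted p from 0.0907 to 0.175). With library totals its rapeseed value was 1.09, on a scale that moves most genes up. Being kept under every scaling is thus no test of a higher call. Lipase 3-like (LOC107994148) had 20.03, 19.3 and 22.5 CPM in rapeseed libraries, 27.3, 23.6 and 23.5 CPM in pear libraries and 30.4, 33.3 and 33.6 CPM in non-pollen libraries, with non-pollen libraries highest and rapeseed libraries lowest. Its log2 fold change was -0.66 (SE 0.0844, adjusted p = 9.92e-07) in rapeseed and -0.39 (SE 0.084, adjusted p = 0.000519) in pear against non-pollen libraries, the pear value turning to 0.15 with library totals. Between rapeseed and pear libraries it was -0.27 (SE 0.0844, adjusted p = 0.0415), a call lost without any 1 of rapeseed replicates 1 and 2 and pear replicates 1 and 2 (adjusted p from 0.0548 to 0.206). Prostatic acid phosphatase-like (LOC108000626) had 28.7, 24.5 and 27.2 CPM in rapeseed libraries, 32.3, 32.1 and 29.9 CPM in pear libraries and 34.0, 37.0 and 35.3 CPM in non-pollen libraries. Its rapeseed value was -0.41 (SE 0.0732, adjusted p = 7.07e-05), which turned to 0.0854 with library totals, and it was lower in rapeseed than in pear libraries at -0.23 (SE 0.073, adjusted p = 0.0406), lost without any 1 of rapeseed replicates 2 and 3 and pear replicates 1 and 2 (adjusted p from 0.0944 to 0.218). Deoxyribonuclease-2-alpha (LOC107997036), which degrades DNA in lysosomes, had 8.07, 7.23 and 7.19 CPM in rapeseed libraries, 8.98, 10.3 and 10.9 CPM in pear libraries and 9.60, 9.24 and 7.65 CPM in non-pollen libraries. It was called only between rapeseed and pear libraries, at -0.42 (SE 0.128, adjusted p = 0.0342), and this was lost without any 1 of rapeseed replicates 1, 2 and 3 and pear replicates 2 and 3 (adjusted p from 0.05 to 0.126). Palmitoyl-protein thioesterase 1 (LOC108003413) was called in no comparison, and the PPT2 homolog (LOC107996175) was lower by 0.62 and 0.61 on the log2 scale in rapeseed and pear libraries, with 6.64 ± 0.930 CPM in non-pollen libraries (SD, n = 3). With library totals the PPT2 homolog was at -0.13 and -0.0727 and not called (adjusted p = 0.523 and 0.716).

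**Figure D3:**
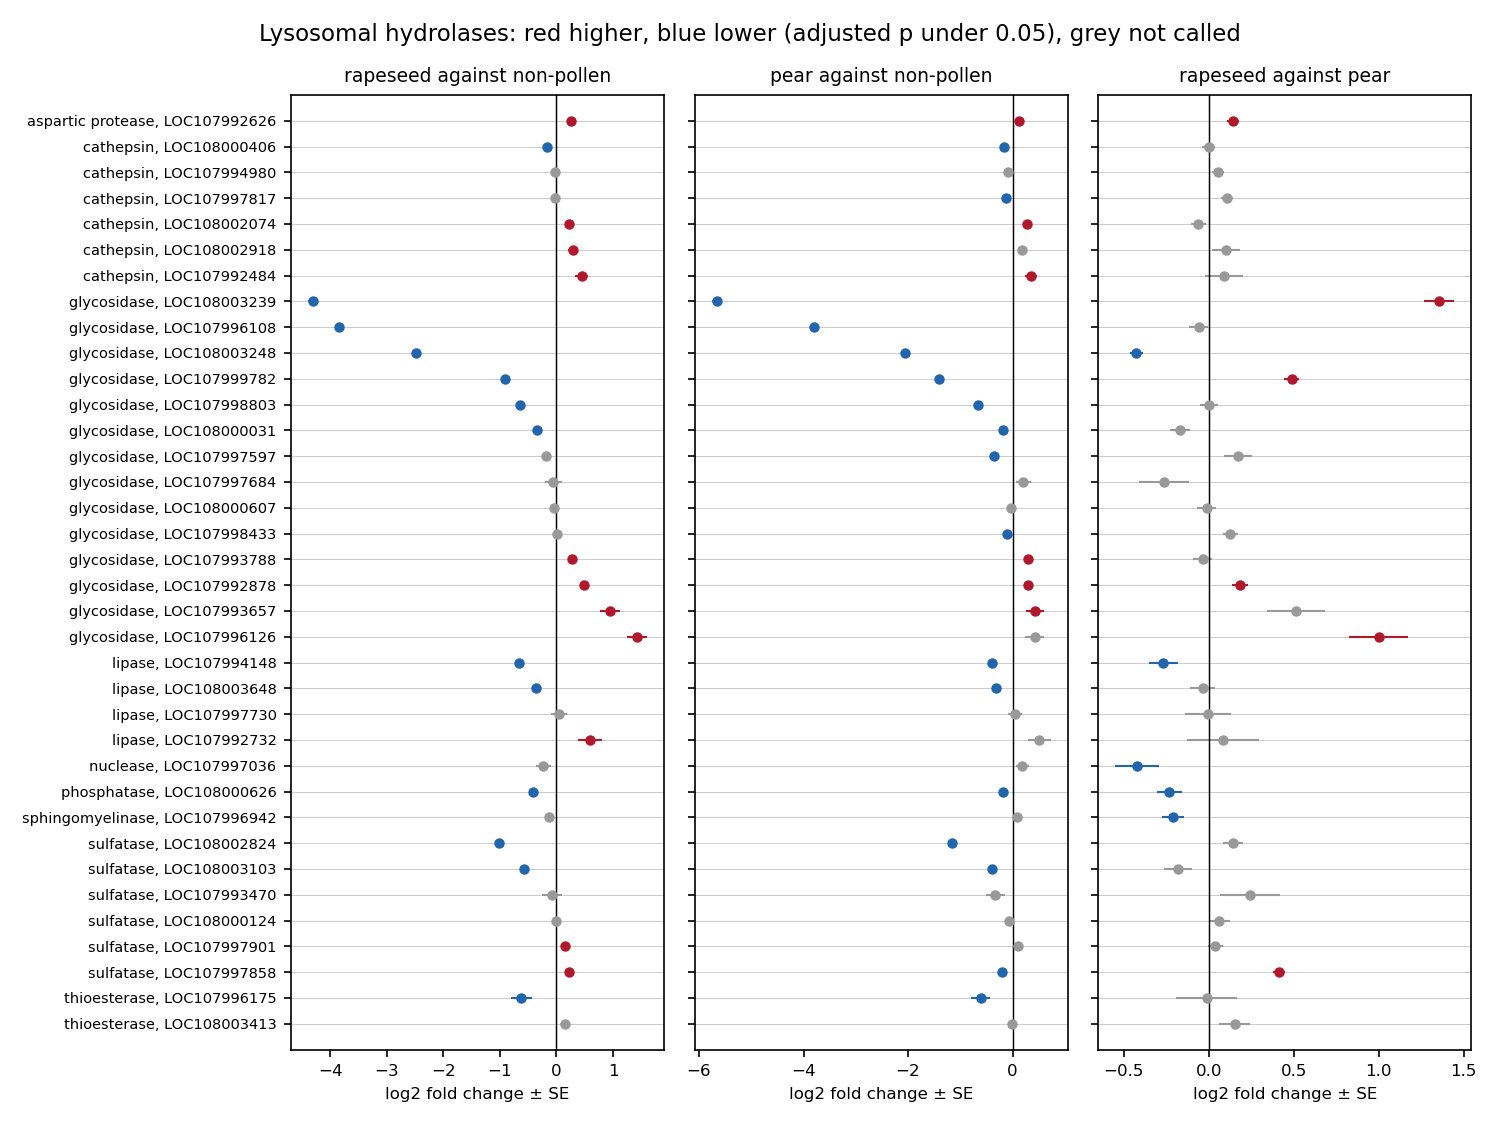
Log2 fold changes (horizontal axes) with standard errors for the 36 tested hydrolases, grouped by kind of enzyme, in rapeseed against non-pollen, pear against non-pollen and rapeseed against pear libraries; the horizontal scales differ between panels. Points in red were called higher, in blue lower and in grey neither, and 4 glycosidases and 1 sulfatase lie below -1 in pear against non-pollen libraries.

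Hydrolases together counted 11 higher and 13 lower in rapeseed against non-pollen libraries, with a median log2 fold change of -0.05, and 6 higher and 17 lower in pear against non-pollen libraries, with a median of -0.10. With library totals these counts were 24 higher and 6 lower in rapeseed and 26 higher and 6 lower in pear libraries. Against pear libraries 6 hydrolases were higher and 5 lower in rapeseed libraries (16.7% and 13.9%), beside 7.94% and 4.96% of all tested genes. With TMM, 30.6% of tested hydrolases were higher and 36.1% lower in rapeseed against non-pollen libraries, beside 29.3% and 30.0% of all tested genes. In pear against non-pollen libraries the shares were 16.7% and 47.2%, beside 28.5% and 27.2%. Whether any class differs from all tested genes was not tested.

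Membrane proteins moved less in size than the glycosidases, and more of them were higher than lower. Of the 21 tested, 10 were higher and 6 lower in rapeseed and 10 higher and 5 lower in pear against non-pollen libraries, with medians of 0.12 and 0.07. These were 47.6% and 28.6% in rapeseed libraries, beside 29.3% and 30.0% of all tested genes. In pear libraries they were 47.6% and 23.8%, beside 28.5% and 27.2%. With library totals the counts of membrane proteins were 17 and 3 in rapeseed and 18 and 1 in pear libraries. Against pear libraries 5 were higher and 1 lower in rapeseed libraries (23.8% and 4.76%), beside 7.94% and 4.96% of all tested genes.

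NPC1-type proteins move sterols out of the lysosome in mammals, and 4 are listed. The NPC1-like gene LOC107997528, on the plus strand of scaffold NW_016019164.1 from 1317628 to 1332991, had 6.94, 8.43 and 7.83 CPM in rapeseed libraries, 25.6, 24.9 and 27.6 CPM in pear libraries and 20.02, 24.0 and 21.8 CPM in non-pollen libraries. Rapeseed libraries lay far below both other groups. The log2 fold change was -1.51 (SE 0.0997, adjusted p = 2.83e-11) for rapeseed over non-pollen libraries and -1.75 (SE 0.0993, adjusted p = 2.68e-11) in rapeseed against pear libraries, both called also with library totals, at -1.02 and -1.80. In pear against non-pollen libraries it was 0.25 (SE 0.0943, adjusted p = 0.0328), a call lost without any 1 of pear replicates 1 and 3 and non-pollen replicates 1 and 3 (adjusted p from 0.0522 to 0.127). Another copy, LOC107994431, was at 107 ± 3.72 CPM in rapeseed, 110 ± 1.52 in pear and 121 ± 1.93 in non-pollen libraries (SD, n = 3 each). Its calls, -0.18 and -0.13 in rapeseed and pear libraries, turned to 0.31 and 0.40 with library totals. The copy LOC108002062 was at 73.0 ± 0.168, 66.8 ± 1.94 and 61.4 ± 2.27 CPM in rapeseed, pear and non-pollen libraries (SD, n = 3 each) and rose by 0.25 (SE 0.0465, adjusted p = 0.000118) in rapeseed and 0.12 (SE 0.0467, adjusted p = 0.037) in pear libraries, the pear call being lost without any 1 of pear replicates 2 and 3 and non-pollen replicate 1 (adjusted p from 0.0996 to 0.131). The remaining copy, LOC108000969, had at most 2 counts in any library.

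Battenin (LOC107992985), the bee counterpart of the human protein lost in juvenile neuronal ceroid lipofuscinosis, had 120.2, 119.6 and 117 CPM in rapeseed libraries, 104, 105 and 105 CPM in pear libraries and 69.4, 66.5 and 75.6 CPM in non-pollen libraries. It was highest in rapeseed and lowest in non-pollen libraries, with no overlap between groups. It rose by 0.76 (SE 0.046, adjusted p = 7.36e-12) in rapeseed and 0.57 (SE 0.0461, adjusted p = 8.97e-10) in pear against non-pollen libraries, and by 0.19 (SE 0.0451, adjusted p = 0.00758) in rapeseed against pear libraries, a call lost with limma on both FPKM scales (adjusted p = 0.0945 and 0.103). MFSD8 (LOC108001150), another transporter-like lysosomal membrane protein linked to this disease group in humans, went the other way and had 10.5, 8.83 and 10.02 CPM in rapeseed libraries, 11.3, 10.4 and 8.39 CPM in pear libraries and 17.7, 17.6 and 16.7 CPM in non-pollen libraries. Its log2 fold change was -0.83 (SE 0.115, adjusted p = 2.96e-06) in rapeseed and -0.79 (SE 0.116, adjusted p = 6.06e-06) in pear libraries, and -0.34 and -0.25 with library totals, where the pear value was not called.

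CD63-type tetraspanins sit in late endosome and lysosome membranes. The most abundant of them (LOC108004225) had 402, 399 and 402 CPM in rapeseed libraries, 382, 368 and 374 CPM in pear libraries and 338, 338 and 336 CPM in non-pollen libraries. It rose by 0.25 (SE 0.0309, adjusted p = 5.77e-07) in rapeseed and 0.15 (SE 0.0309, adjusted p = 0.000279) in pear against non-pollen libraries, with non-overlapping groups. It was also called higher in rapeseed than in pear libraries, by 0.10 (SE 0.0307, adjusted p = 0.0424), lost without any 1 of rapeseed replicates 1, 2 and 3, pear replicates 2 and 3 and non-pollen replicate 3 (adjusted p from 0.0505 to 0.185). The other 3 lie beside each other, 2311 and 2419 bases apart. Of these LOC108000022 had 119, 127 and 122 CPM in rapeseed libraries, 117, 113 and 114 CPM in pear libraries and 217, 199 and 189.9 CPM in non-pollen libraries. It fell by 0.72 in rapeseed and by 0.82 in pear libraries on the log2 scale (adjusted p = 1.26e-11 and 1.9e-12) and was called lower under every scaling. Its neighbour LOC108000023 had 153, 142 and 143 CPM in rapeseed libraries, 132, 131 and 124 CPM in pear libraries and 131, 130.4 and 128 CPM in non-pollen libraries. It was higher in rapeseed libraries, by 0.17 (SE 0.041, adjusted p = 0.00128) against non-pollen and 0.18 (SE 0.0408, adjusted p = 0.00543) against pear libraries, the call against pear being lost without rapeseed replicate 1 (adjusted p = 0.0564). LOC107999957 was called in no comparison, with 11.4 ± 1.09, 11.7 ± 1.86 and 11.1 ± 1.15 CPM in rapeseed, pear and non-pollen libraries (SD, n = 3 each).

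Transporters of anions were mostly higher. The putative inorganic phosphate cotransporters LOC108000018 and LOC108000017 lie 447 bases apart. LOC108000018 had 30.01, 31.4 and 29.9 CPM in rapeseed libraries, 22.2, 23.8 and 26.2 CPM in pear libraries and 22.6, 16.7 and 18.1 CPM in non-pollen libraries, and LOC108000017 had 30.9, 34.1 and 30.1 CPM in rapeseed libraries, 29.5, 29.3 and 26.5 CPM in pear libraries and 23.8, 23.1 and 23.5 CPM in non-pollen libraries. The log2 fold change of LOC108000018 was 0.68 (SE 0.0974, adjusted p = 4.41e-06) in rapeseed and 0.34 (SE 0.098, adjusted p = 0.00616) in pear against non-pollen libraries, where the lowest pear library lay below the highest non-pollen library. Against pear it was 0.34 (SE 0.0956, adjusted p = 0.0208) in rapeseed libraries, lost without any 1 of rapeseed replicates 1, 2 and 3 and pear replicates 1 and 2 (adjusted p from 0.0565 to 0.0987). LOC108000017 rose by 0.43 (SE 0.0751, adjusted p = 4.36e-05) in rapeseed and 0.28 (SE 0.0754, adjusted p = 0.00367) in pear libraries. Sialin (LOC108003865), which exports sialic acid in mammals, rose by 0.18 and 0.15. The anion transporter LOC107998274 had 46.2, 47.0 and 44.2 CPM in rapeseed libraries, 43.1, 42.4 and 49.3 CPM in pear libraries and 52.5, 50.3 and 52.8 CPM in non-pollen libraries, and its lower calls, -0.18 in rapeseed and -0.21 in pear libraries, turned to 0.31 and 0.33 with library totals, while the rapeseed call was lost without any 1 of rapeseed replicate 3 and non-pollen replicate 3 (adjusted p from 0.0515 to 0.07). Malvolio (LOC108000661), in *Drosophila* a transporter of metal ions, was higher in pear libraries by 0.13 (SE 0.0356, adjusted p = 0.00353).

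Among the other membrane proteins, sialomucin core protein 24-like (LOC107995384) had 272, 275 and 270.3 CPM in rapeseed libraries, 262, 266 and 271 CPM in pear libraries and 383, 388 and 374 CPM in non-pollen libraries. It was lower at -0.49 (SE 0.0324, adjusted p = 3.21e-11) in rapeseed and -0.52 (SE 0.0324, adjusted p = 1.37e-11) in pear against non-pollen libraries, and the groups with pollen overlapped each other. With library totals these values were 0.00599 and 0.0158. Patched domain-containing protein 3-like (LOC108004327) had 110.1, 107 and 108 CPM in rapeseed libraries, 107, 109 and 106 CPM in pear libraries and 90.6, 84.1 and 90.5 CPM in non-pollen libraries, and rose by 0.30 and 0.28 in rapeseed and pear libraries. Heparan-alpha-glucosaminide N-acetyltransferase, which adds an acetyl group during heparan sulfate breakdown, has a pair of listed genes. LOC108003351 had 281, 281 and 271 CPM in rapeseed libraries, 270.4, 267 and 261 CPM in pear libraries and 292, 284 and 266 CPM in non-pollen libraries, and was called in no comparison. LOC108000398 had 57.0, 53.5 and 58.6 CPM in rapeseed libraries, 50.5, 50.9 and 47.7 CPM in pear libraries and 49.3, 46.7 and 48.8 CPM in non-pollen libraries. Rapeseed libraries were above non-pollen libraries by 0.23 (SE 0.0537, adjusted p = 0.00118) and above pear libraries by 0.18 (SE 0.0533, adjusted p = 0.0268), the call against pear being lost without any 1 of rapeseed replicates 1 and 3 and pear replicates 2 and 3 (adjusted p from 0.0516 to 0.139). LOC107997182, described as a lipopolysaccharide-induced tumor necrosis factor-alpha factor homolog, had 49.5, 50.1 and 51.9 CPM in rapeseed libraries, 51.8, 54.7 and 56.2 CPM in pear libraries and 46.9, 43.7 and 45.5 CPM in non-pollen libraries. It rose by 0.26 (SE 0.0537, adjusted p = 0.000344) in pear libraries and by 0.15 (SE 0.0537, adjusted p = 0.0175) in rapeseed libraries, the rapeseed call being lost without any 1 of rapeseed replicate 3 and non-pollen replicate 2 (adjusted p from 0.0734 to 0.0779).

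**Figure D4:**
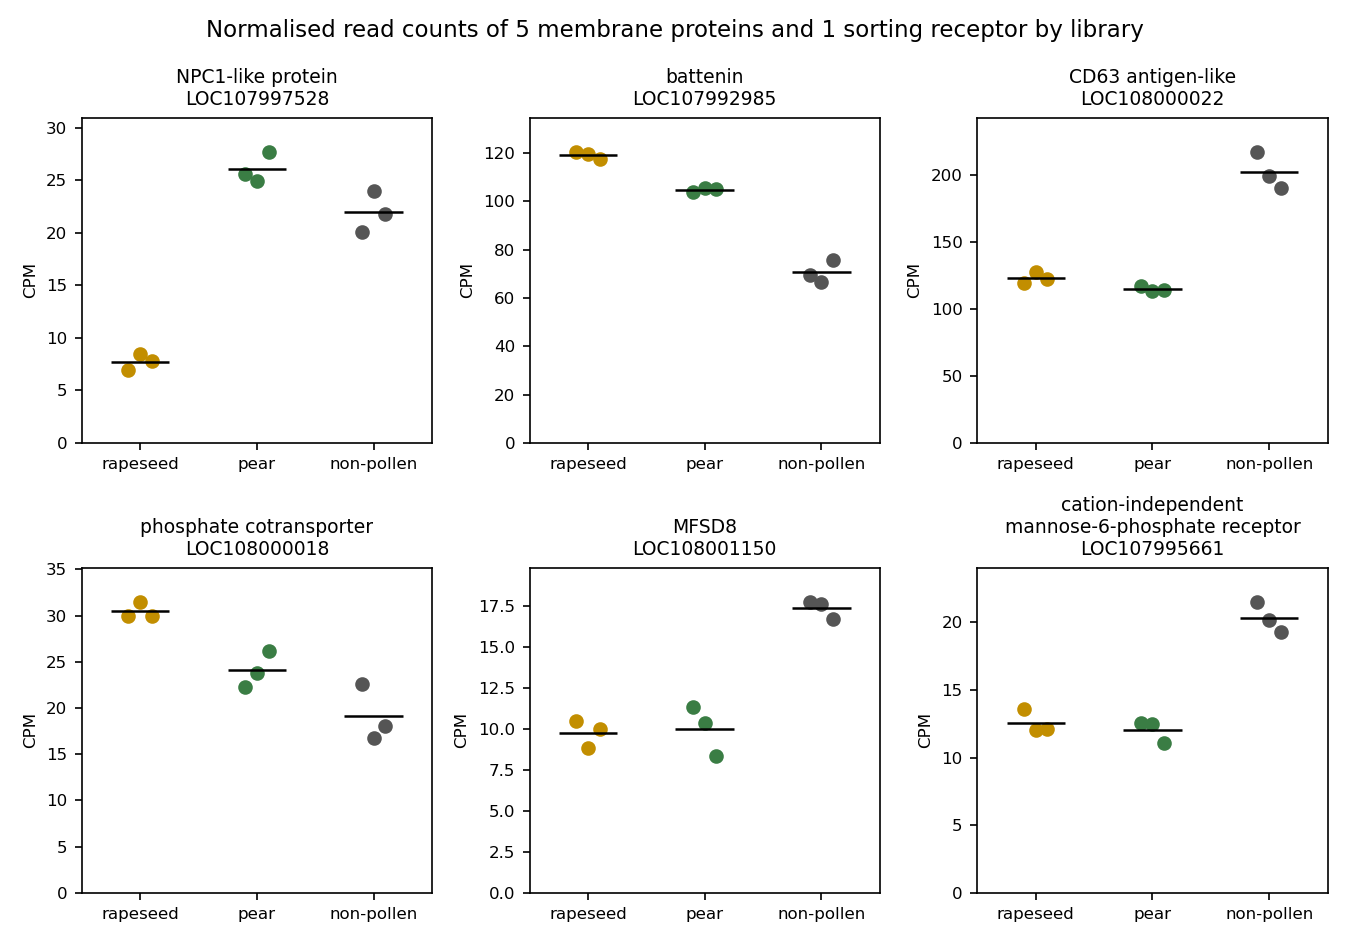
CPM (vertical axis, from 0) in each library for 5 membrane proteins and the cation-independent mannose-6-phosphate receptor, with points for libraries and a line for the mean of each group of 3. The NPC1-like gene is at 6.94 to 8.43 CPM in rapeseed libraries and above 20 in the others, battenin and the phosphate cotransporter are highest in rapeseed libraries, and CD63 LOC108000022, MFSD8 and the receptor are highest in non-pollen libraries.

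Sorting proteins had the largest share of lower calls of the 4 classes against non-pollen libraries under TMM scaling, 56.2% in each contrast, and none of these calls was kept under every scaling. Of all tested genes 30.0% were called lower in rapeseed and 27.2% in pear against non-pollen libraries. Of 16 sorting proteins tested, 3 were higher and 9 lower in rapeseed and 4 higher and 9 lower in pear libraries, with medians of -0.24 and -0.19. With library totals, 10 were higher in rapeseed and 11 in pear libraries and the rest were not called, so the direction of the calls flips. The class medians, 0.25 and 0.35, stayed below the 0.47 and 0.53 of all genes.

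In mammals, mannose-6-phosphate receptors carry tagged enzymes to the lysosome. The cation-independent receptor (LOC107995661) had 13.6, 12.0 and 12.1 CPM in rapeseed libraries, 12.5, 12.5 and 11.1 CPM in pear libraries and 21.5, 20.1 and 19.3 CPM in non-pollen libraries. Its log2 fold change was -0.69 (SE 0.0967, adjusted p = 2.99e-06) in rapeseed and -0.75 (SE 0.0971, adjusted p = 1.15e-06) in pear libraries, and -0.20 and -0.21 with library totals, where neither was called. The mannose 6-phosphate receptor-like protein LOC108004181 was more abundant and went the other way, with 137, 141 and 145 CPM in rapeseed libraries, 154, 149.9 and 151 CPM in pear libraries and 131, 133 and 124 CPM in non-pollen libraries. It rose by 0.12 (SE 0.0395, adjusted p = 0.0112) in rapeseed, lost without any 1 of rapeseed replicate 3 and non-pollen replicate 3 (adjusted p from 0.0622 to 0.0718), and by 0.23 (SE 0.0395, adjusted p = 4.65e-05) in pear libraries. N-acetylglucosamine-1-phosphotransferase (LOC107998891), which makes the tag in mammals, had 6.87, 8.83 and 6.73 CPM in rapeseed libraries, 8.07, 6.44 and 6.87 CPM in pear libraries and 8.58, 9.41 and 10.4 CPM in non-pollen libraries. Its lower call in pear libraries, -0.41 (SE 0.144, adjusted p = 0.0201), was lost without any 1 of pear replicates 2 and 3 and non-pollen replicate 3 (adjusted p from 0.0604 to 0.0919).

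GGA proteins and the AP-1 complex link cargo to clathrin at the Golgi. GGA3-like (LOC107998598) had 54.9, 57.0 and 58.1 CPM in rapeseed libraries, 61.8, 54.5 and 58.9 CPM in pear libraries and 81.9, 75.8 and 78.9 CPM in non-pollen libraries, and GGA1 (LOC107998146), 9107 bases away, had 3.84, 4.20 and 5.92 CPM in rapeseed libraries, 6.52, 7.20 and 5.57 CPM in pear libraries and 7.05, 8.01 and 6.51 CPM in non-pollen libraries. GGA3-like was lower at -0.48 in rapeseed and -0.43 in pear libraries, values that turned to 0.0163 and 0.10 with library totals. GGA1 was lower at -0.63 (SE 0.176, adjusted p = 0.00448) in rapeseed libraries, and at -0.14 with library totals, where it was not called. TOM1-like protein 2 (LOC107999237), an adaptor of endosomes, had 73.8, 69.6 and 70.7 CPM in rapeseed libraries, 73.2, 70.9 and 70.2 CPM in pear libraries and 56.5, 57.4 and 66.2 CPM in non-pollen libraries. It rose by 0.25 and 0.25 in rapeseed and pear libraries.

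The AP-1 subunits differed among themselves. Subunit mu-1 (LOC108004501) had 75.6, 84.8 and 77.5 CPM in rapeseed libraries, 83.7, 79.9 and 82.3 CPM in pear libraries and 73.7, 71.9 and 74.5 CPM in non-pollen libraries, and rose by 0.16 (SE 0.0482, adjusted p = 0.00816) in pear libraries. Subunit beta-1 (LOC107996860) had 206, 194 and 195 CPM in rapeseed libraries, 195, 202 and 206 CPM in pear libraries and 204, 197 and 194 CPM in non-pollen libraries, and was called in no comparison. Subunits gamma-1 (LOC107998881) and sigma-2-like (LOC107995672) were lower at -0.34 and -0.34 in rapeseed libraries, beside 0.16 and 0.15 with library totals. Their pear calls, -0.16 and -0.22, were lost without 4 and 2 libraries, those being pear replicates 1 and 3 and non-pollen replicates 2 and 3 for gamma-1 and pear replicate 2 and non-pollen replicate 2 for sigma-2-like. AP-3 carries membrane proteins to lysosomes and, in *Drosophila*, to pigment granules. All 4 AP-3 subunits were lower in pear libraries, between -0.42 and -0.22, beside 27.2% of all tested genes. In rapeseed libraries 3 of the 4 were lower, beside 30.0% of all tested genes. With library totals, however, 3 of the 4 subunits were higher in each pollen group. The largest change was in delta-1 (LOC107997852), which had 24.2, 24.9 and 25.8 CPM in rapeseed libraries, 28.3, 24.9 and 26.7 CPM in pear libraries and 34.7, 38.4 and 33.9 CPM in non-pollen libraries, with -0.51 (SE 0.075, adjusted p = 5.32e-06) in rapeseed and -0.42 (SE 0.0749, adjusted p = 6.69e-05) in pear libraries. The call of sigma-2 (LOC107998858) in pear libraries was lost without non-pollen replicate 3 (adjusted p = 0.0625), and that of mu-1 (LOC107999715) was lost without non-pollen replicate 1 (adjusted p = 0.0514) in pear and without any 1 of rapeseed replicate 3 and non-pollen replicate 1 (adjusted p from 0.0625 to 0.131) in rapeseed libraries. Beta-2 (LOC107992856) was lower at -0.30 (SE 0.0484, adjusted p = 1.79e-05) in rapeseed and -0.23 (SE 0.0485, adjusted p = 0.000427) in pear libraries.

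Clathrin forms the coat of these vesicles. Its light chain (LOC107993738) had 106, 113 and 103 CPM in rapeseed libraries, 104, 103 and 107 CPM in pear libraries and 96.4, 85.3 and 85.1 CPM in non-pollen libraries. It rose by 0.27 (SE 0.0505, adjusted p = 0.000103) in rapeseed and 0.24 (SE 0.0506, adjusted p = 0.000457) in pear libraries. The heavy chain (LOC107992803) had 119.5, 116 and 129 CPM in rapeseed libraries, 139, 131 and 136 CPM in pear libraries and 130.0, 129.6 and 123 CPM in non-pollen libraries. It was called only in rapeseed against pear libraries, at -0.15 (SE 0.0443, adjusted p = 0.0237), lost without any 1 of rapeseed replicates 1 and 2 and pear replicates 1 and 3 (adjusted p from 0.058 to 0.148), and it was the 1 sorting protein called in that comparison.

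**Figure D5:**
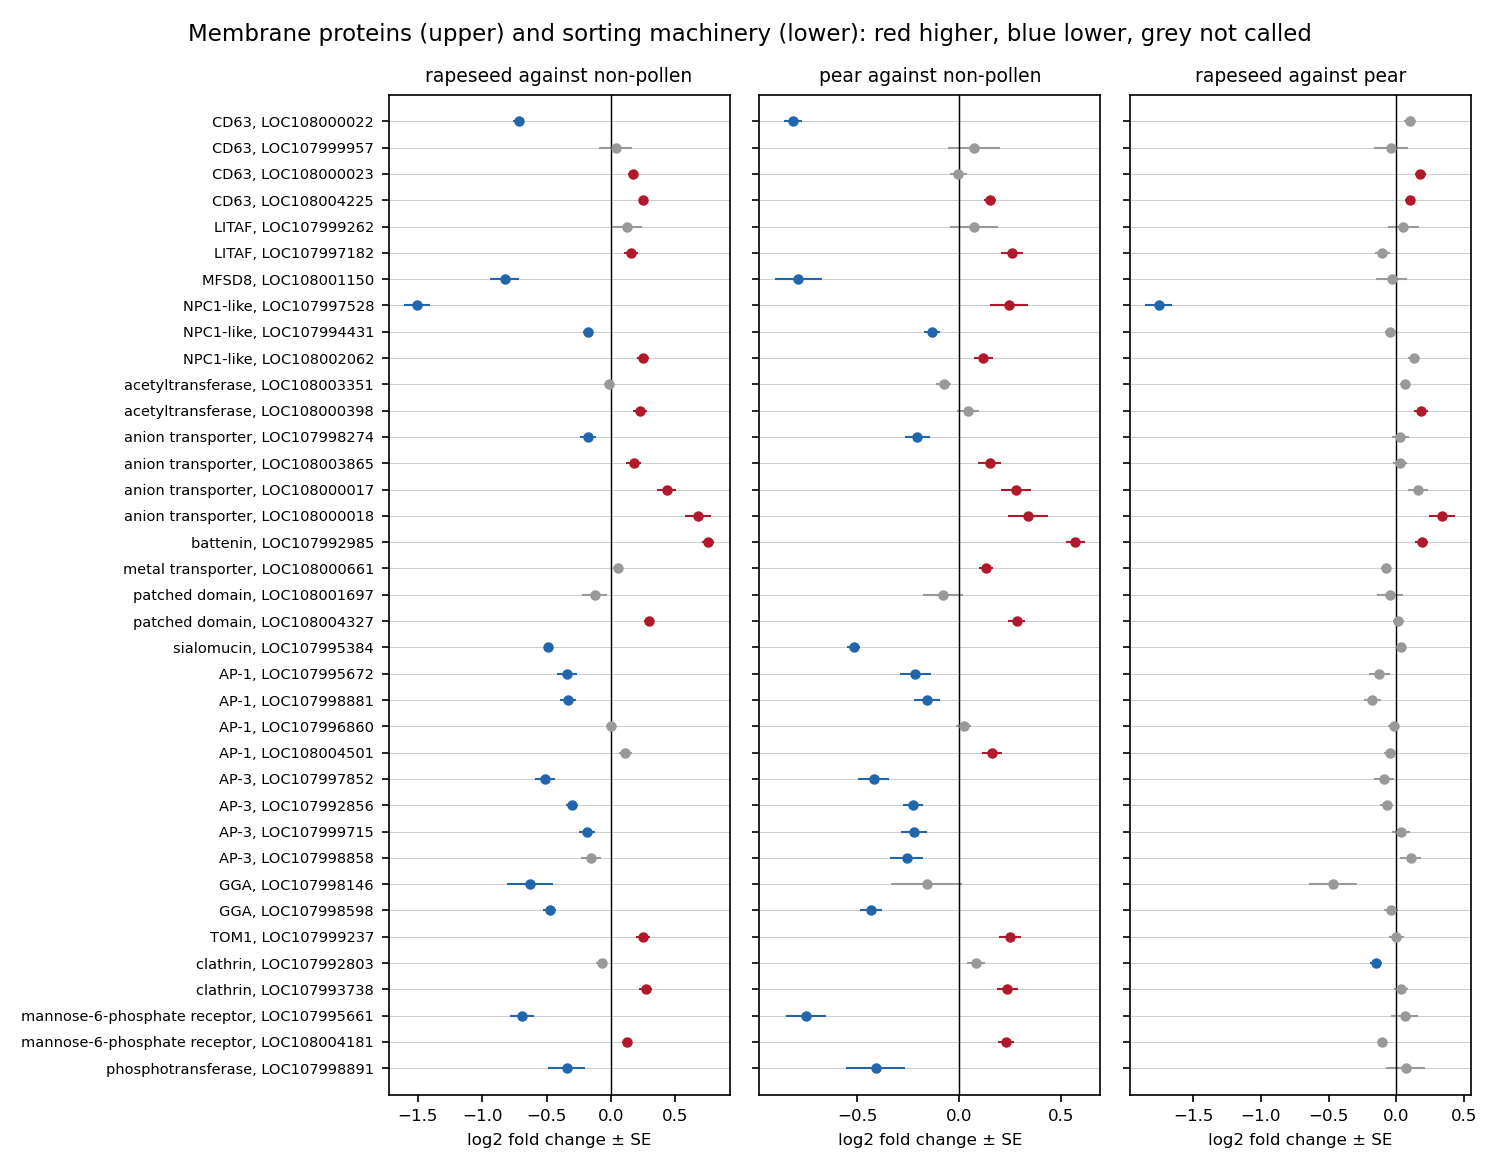
Log2 fold changes (horizontal axes) with standard errors for the 21 tested membrane proteins (upper rows) and 16 sorting proteins (lower rows) in rapeseed against non-pollen, pear against non-pollen and rapeseed against pear libraries; the horizontal scales differ between panels. Points in red were called higher, in blue lower and in grey neither; the NPC1-like gene LOC107997528, at -1.51 and -1.75 in the rapeseed panels, lies farthest from 0.

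Among the other members, prosaposin (LOC107995663) had 1083, 1093 and 1095 CPM in rapeseed libraries, 1026, 1005 and 1015 CPM in pear libraries and 927, 850.2 and 855 CPM in non-pollen libraries. It rose by 0.31 (SE 0.034, adjusted p = 7.89e-08) in rapeseed and 0.21 (SE 0.034, adjusted p = 2.05e-05) in pear against non-pollen libraries. NPC2 proteins hand sterols to NPC1 in mammals, and 4 are listed. The NPC2 homolog LOC107993665 had 92.0, 86.0 and 87.5 CPM in rapeseed libraries, 78.4, 79.0 and 78.3 CPM in pear libraries and 52.4, 66.4 and 72.5 CPM in non-pollen libraries, and rose by 0.47 (SE 0.0736, adjusted p = 1.4e-05) in rapeseed and 0.30 (SE 0.0739, adjusted p = 0.00193) in pear libraries. The more abundant homolog LOC107997896 had 259, 268 and 254 CPM in rapeseed libraries, 206, 213 and 233 CPM in pear libraries and 232, 214 and 233 CPM in non-pollen libraries. It was higher in rapeseed libraries, by 0.20 (SE 0.0445, adjusted p = 0.000571) against non-pollen and 0.26 (SE 0.0444, adjusted p = 0.000294) against pear libraries. It overlaps the NPC2-type gene LOC107997784 by 146 bases, which was called in no comparison. LOC107997586, an NPC2-type gene that is also described as a zinc finger protein, had 2.46, 3.43 and 3.37 CPM in rapeseed libraries, 2.42, 1.89 and 2.12 CPM in pear libraries and 2.95, 3.86 and 4.13 CPM in non-pollen libraries, and its log2 fold change of -0.77 (SE 0.225, adjusted p = 0.00619) in pear libraries was -0.24 and not called with library totals. A gene described as an ecdysteroid-regulated protein (LOC108004050) had 23.5, 25.7 and 21.7 CPM in rapeseed libraries, 18.0, 16.6 and 17.8 CPM in pear libraries and 24.3, 17.9 and 16.5 CPM in non-pollen libraries. It was higher in rapeseed than in pear libraries by 0.44 (SE 0.113, adjusted p = 0.0119), lost without any 1 of rapeseed replicate 2 and pear replicate 2 (adjusted p from 0.0625 to 0.0726).

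The remaining named members have no clear lysosomal role in their descriptions. The GATA zinc finger domain gene LOC107994487 had 18.0, 16.3 and 17.5 CPM in rapeseed libraries, 15.8, 15.6 and 13.0 CPM in pear libraries and 10.8, 12.5 and 12.5 CPM in non-pollen libraries, and rose by 0.52 (SE 0.103, adjusted p = 0.000192) in rapeseed and 0.30 (SE 0.104, adjusted p = 0.0182) in pear libraries, the pear call being lost without any 1 of pear replicates 1 and 2 and non-pollen replicate 1 (adjusted p from 0.0692 to 0.0755). The uncharacterised LOC107994044 had 17.2, 19.7 and 20.8 CPM in rapeseed libraries, 20.3, 21.4 and 22.7 CPM in pear libraries and 23.5, 23.3 and 24.7 CPM in non-pollen libraries, with -0.31 (SE 0.0869, adjusted p = 0.00409) in rapeseed libraries, which turned to 0.18 with library totals. LOC114576767 had 5.85, 6.71 and 5.62 CPM in rapeseed libraries, 6.77, 7.01 and 8.13 CPM in pear libraries and 7.77, 7.37 and 7.84 CPM in non-pollen libraries, and its rapeseed call, -0.34 (SE 0.14, adjusted p = 0.0442), was lost without any 1 of rapeseed replicates 1 and 3, pear replicate 2 and non-pollen replicates 1, 2 and 3 (adjusted p from 0.0512 to 0.133). Of the 11 other members tested, 5 were higher and 2 lower in rapeseed and 3 higher and 1 lower in pear against non-pollen libraries. These were 45.5% and 18.2% in rapeseed libraries, beside 29.3% and 30.0% of all tested genes. In pear libraries they were 27.3% and 9.09%, beside 28.5% and 27.2%.

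The comparison of rapeseed with pear libraries does not use the levels of non-pollen libraries, and its calls were fewer than those against non-pollen libraries. The non-pollen libraries still entered the same fit, with its scaling and its estimate of spread. Of the 84 members, 13 were higher and 7 lower, together 23.8%, beside 12.9% of all tested genes. Of these calls 6 higher and 6 lower were kept under all 6 scalings, some of which also change the test. The libraries of 39 members (46.4%) did not overlap, beside 30.5% of all tested genes. Whether these shares differ from those of other genes was not tested. Over 2-fold were only glucosylceramidase 4 (LOC108003239), at 1.36, and the NPC1-like gene LOC107997528, at -1.75, with alpha-mannosidase LOC107996126, at 1.0, just under it. Glucosylceramidase 4 and the NPC1-like gene were also the only members called with a test against a fold of 1.5, which called 1 higher and 1 lower. The counts rested on single libraries: there were 2 lower without rapeseed replicate 2, 3 without rapeseed replicate 1, 4 without pear replicate 1, 2 or 3, and 8 higher without pear replicate 2. Against non-pollen libraries the test at a fold of 1.5 called 2 higher and 7 lower in rapeseed libraries and 6 lower and none higher in pear libraries (edgeR, no member higher at an unadjusted p under 0.05). The 6 were glucosylceramidase 4, glucosylceramidase-like, alpha-mannosidase LOC107996108, beta-galactosidase-like, arylsulfatase B-like LOC108002824 and CD63 LOC108000022. In rapeseed libraries the same 6 were called together with the NPC1-like gene, while battenin and alpha-mannosidase LOC107996126 were the 2 higher.

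Genes that work with the lysosome were read beside its own, in lists matched on descriptions. Of 13 subunits of the vacuolar proton pump, 11 were higher and 1 lower in rapeseed against non-pollen libraries, and in pear against non-pollen libraries 10 were higher and 3 not called, with medians of 0.43 and 0.36 beside -0.02 and -0.01 for all genes. Of 23 tested autophagy genes, 10 were higher and 4 lower in rapeseed and 9 higher and 4 lower in pear libraries, with medians of 0.08 and 0.07. Of 35 vacuolar sorting genes, 14 were higher and 6 lower in rapeseed and 14 higher and 4 lower in pear libraries, with medians of 0.06 and 0.10. These counts stand beside 29.3% higher and 30.0% lower of all tested genes in rapeseed and 28.5% and 27.2% in pear libraries. With library totals, where all genes shift up, the proton pump counted 13 higher in each pollen group, the autophagy genes 20 higher and 3 not called in each, and the vacuolar sorting genes 31 higher and 1 lower in rapeseed and 32 higher and 1 lower in pear libraries. The 6 scavenger receptors, the kind of gene that the choice of members excludes, had medians of 0.74 in rapeseed and 0.57 in pear against non-pollen libraries and of 0.35 in rapeseed against pear libraries.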

How the data were processed

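RNA-seq of 9 proboscis libraries of *A. cerana* was used, 3 each from bees with rapeseed pollen, with pear pollen and without pollen. One table was deposited by the authors, with whole-number read counts per gene and with FPKM, in which fragment counts are scaled by gene length and depth. HISAT2 2.2.1, cutadapt 1.9, StringTie 2.1.6, edgeR and DESeq2 stand in the submitters' processing notes, without the step each served. Not given in the sources used here are the genome build, whether strand was used in counting, and how reads matching several genes were handled. The study's paper describes other libraries, and no value was taken from it.

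The deposited counts were fitted for the whole table with edgeR 4.0.16 in R 4.3.3 (TMM scaling, quasi-likelihood test, one fit of the 3 groups, p-values adjusted over 9259 genes after Benjamini and Hochberg, threshold 0.05). A gene was tested where 3 or more of the 9 libraries reached an FPKM of 1. In simulated data with 200 changed genes, the fit recovered 53.5% of them at a fold of 1.25 in pear against non-pollen libraries. At folds of 1.5 and 2 it recovered 79.5% and 98%. Changes near a fold of 1.25 can therefore be missed. The simulation changed 200 of 9259 genes, balanced up and down, without the royal jelly excess of non-pollen libraries. In the data 55.7% of tested genes were called in this contrast, so the recovered shares may not carry over. TMM factors were 1.108 to 1.111 in rapeseed, 1.118 to 1.166 in pear and 0.773 to 0.800 in non-pollen libraries, and the common biological coefficient of variation was 7.92%. No 2 replicates agreed within sampling noise (chi-square per degree of freedom 6.03 to 14.2).

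Alternatives were library totals, TMM without royal jelly and gland enzyme genes, DESeq2 1.42.0, no filter, limma 3.58.1 on log2(FPKM + 1) and log2(FPKM + 0.1), only the groups compared, the replicate number as a block, a test against a fold of 1.5, and each library left out. The 6 scalings are TMM, library totals, TMM without the gland genes, DESeq2 and both FPKM scales. DESeq2 and the FPKM scales, fitted with limma, also change the test, so a call lost there need not be lost to scaling. Members, classes and lists were chosen with earlier results of these data known. Named were, in each class and comparison, up to 4 called members per direction with the largest change and non-overlapping libraries, the 4 members of each class with the highest mean FPKM, and all AP-1, AP-3, NPC1, NPC2 and cathepsin members. Some members outside this rule were named for their roles or their position after their values were seen. For 85 of the 94 members the identifier was also in RefSeq's gene list for AcerK_1.0, from which no position was taken.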

Additional observations from a re-analysis of the deposited data

Results flagged for a closer look

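Of the lysosome genes, 2 had changes against non-pollen libraries that differed between the pollen groups in sign, and the difference between these groups was tested. The arylsulfatase B-like gene LOC107997858 was higher in rapeseed and lower in pear than in non-pollen libraries, with log2 fold changes of 0.22 and -0.19. Its rapeseed and pear libraries differed by 0.412 (SE 0.0352, edgeR quasi-likelihood test, adjusted p = 2.2e-08), with all 3 rapeseed libraries above all 3 pear libraries. With library totals the pear value was 0.34, so the opposite sign is not kept, whereas the difference between rapeseed and pear libraries was called under every alternative run except a test against a fold of 1.5.

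The NPC1-like gene LOC107997528 had log2 fold changes of -1.51 in rapeseed and 0.25 in pear against non-pollen libraries. Its rapeseed and pear libraries differed by -1.75 (SE 0.0993, adjusted p = 2.68e-11 in that test), with 6.94 to 8.43 CPM in rapeseed and 24.9 to 27.6 CPM in pear libraries. The call in pear against non-pollen libraries was lost without any 1 of pear replicates 1 and 3 and non-pollen replicates 1 and 3, while the call in rapeseed against pear libraries was kept under all alternatives run.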

How the results depend on the processing

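Calls against non-pollen libraries rested on the scaling between libraries. With library totals, limma on log2(FPKM + 1) and limma on log2(FPKM + 0.1), lysosome genes called higher in rapeseed against non-pollen libraries numbered 59, 59 and 60, and those called lower 9, 9 and 9. In pear against non-pollen libraries the counts were 65, 66 and 66 higher and 7, 6 and 6 lower. In rapeseed against pear libraries there were 12 lower with library totals, and 7 and 6 higher on the FPKM scales. These scales leave the shift of all genes in place, whose median was 0.47 in rapeseed and 0.53 in pear against non-pollen libraries with library totals. A test against a fold of 1.5 left 2 higher and 7 lower in rapeseed and 0 higher and 6 lower in pear against non-pollen libraries (edgeR, 0 higher at an unadjusted p under 0.05), and 1 higher and 1 lower in rapeseed against pear libraries. With the replicate number as a block, which the labels do not tie to a shared day or batch, 4 in place of 7 members were lower in rapeseed against pear libraries. Correlations between same-numbered libraries ran from -0.0463 to 0.0298, and 0 of 9 libraries correlated best with its own number. Leaving out 1 library at a time gave 25 to 29 higher and 28 to 30 lower in rapeseed against non-pollen libraries, 18 to 23 higher and 27 to 32 lower in pear against non-pollen libraries, and 8 to 18 higher and 2 to 8 lower in rapeseed against pear libraries. The smallest counts came without pear replicate 2 for higher and without rapeseed replicate 2 for lower calls. Over the named members, 3240 values were recomputed: 251 lost and 67 gained the call, and 136 changed sign with a call before or after. These 136 all came with library totals or on an FPKM scale against non-pollen libraries. The other 2786 kept their side of the threshold, and some of them changed sign without any call. An example is LOC107997586 in rapeseed against non-pollen libraries, at 0.242 with library totals. The 136 values follow as library totals, FPKM + 1 and FPKM + 0.1. In rapeseed against non-pollen libraries these were LOC107992803 at 0.42, 0.41 and 0.43, LOC107992856 at 0.19, 0.19 and 0.20, LOC107994044 at 0.18, 0.17 and 0.18 and LOC107994431 at 0.31, 0.31 and 0.32. Further ones were LOC107994980 at 0.47, 0.47 and 0.48, LOC107995384 at 0.00599, 0.0177 and 0.0178, LOC107995672 at 0.15, 0.14 and 0.17 and LOC107996860 at 0.49, 0.49 and 0.50. They included also LOC107997784 at 0.48, 0.46 and 0.48, LOC107997817 at 0.47, 0.48 and 0.48, LOC107998274 at 0.31, 0.31 and 0.32 and LOC107998598 at 0.0163, 0.0261 and 0.0272. Further ones were LOC107998858 at 0.34, 0.33 and 0.35, LOC107998881 at 0.16, 0.16 and 0.17, LOC107998891 at 0.15, 0.12 and 0.15 and LOC107999715 at 0.31, 0.31 and 0.32. They included also LOC108000406 at 0.33, 0.34 and 0.34, LOC108000626 at 0.0854, 0.0912 and 0.0957, LOC108003351 at 0.48, 0.48 and 0.49 and LOC114576767 at 0.15, 0.0857 and 0.15. Further ones were LOC107997036 at 0.22 and 0.27 on the FPKM scales. With library totals LOC107997036 also changed sign, to 0.259, but was called neither there nor with TMM. In pear against non-pollen libraries these were LOC107992856 at 0.31, 0.30 and 0.32, LOC107994044 at 0.38, 0.35 and 0.39, LOC107994148 at 0.15, 0.15 and 0.16 and LOC107994431 at 0.40, 0.40 and 0.41. Further ones were LOC107994980 at 0.45, 0.46 and 0.47, LOC107995384 at 0.0158, 0.0281 and 0.0282, LOC107995672 at 0.32, 0.29 and 0.33 and LOC107997784 at 0.33, 0.32 and 0.34. They included also LOC107997817 at 0.41, 0.41 and 0.42, LOC107997852 at 0.11, 0.11 and 0.12, LOC107997858 at 0.34, 0.35 and 0.35 and LOC107997896 at 0.48, 0.49 and 0.49. Further ones were LOC107998274 at 0.33, 0.32 and 0.34, LOC107998598 at 0.10, 0.11 and 0.11, LOC107998858 at 0.28, 0.28 and 0.29 and LOC107998881 at 0.38, 0.36 and 0.38. They included also LOC107998891 at 0.12, 0.10 and 0.13, LOC107999715 at 0.32, 0.32 and 0.33, LOC108000023 at 0.53, 0.54 and 0.54 and LOC108000406 at 0.37, 0.38 and 0.38. Further ones were LOC108000626 at 0.36, 0.36 and 0.37, LOC108003351 at 0.46, 0.47 and 0.47, LOC108004050 at 0.38, 0.39 and 0.40 and LOC114576767 at 0.47, 0.26 and 0.44. They included also LOC107998146 at 0.33 and 0.38 on the FPKM scales. With library totals LOC107998146 also changed sign, to 0.375, but was called neither there nor with TMM.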

Other observations

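Of the 94 lysosome genes, 37 overlap another gene of the table in position, 9 of them a gene on the same strand, and the largest neighbour by counts is LOC108003250 inside glucosylceramidase-like LOC108003248. The 10 members that were not tested did not reach an FPKM of 1 in 3 libraries, and their highest counts in any library ran from 2 to 112. The arylsulfatase B-like gene LOC107995018 had 1.37 ± 0.364 CPM in rapeseed, 0.891 ± 0.174 in pear and 1.18 ± 0.370 in non-pollen libraries (SD, n = 3 each). The sphingomyelin phosphodiesterase 1-like gene LOC107999949 had 0.492 ± 0.264 CPM in rapeseed, 0.670 ± 0.110 in pear and 1.29 ± 0.187 in non-pollen libraries (SD, n = 3 each). Lipase 3-like LOC107996467 had 1.15 ± 0.159, 1.22 ± 0.201 and 0.970 ± 0.137 CPM in rapeseed, pear and non-pollen libraries (SD, n = 3 each), and sensory neuron membrane protein 2-like LOC107999038 had 0.621 ± 0.148, 0.930 ± 0.0825 and 0.820 ± 0.195 CPM in rapeseed, pear and non-pollen libraries.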
